A study of Mus musculus with 16 samples.

Results

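The G1 cyclins, kinases and inhibitors are the genes that set the pace of entry into S phase, and 10 of them, of the 55291 genes in the table of normalised counts, are described here. They were chosen by symbol and comprise the D cyclins Ccnd1, Ccnd2 and Ccnd3, the E cyclins Ccne1 and Ccne2, the cyclin-dependent kinases (CDKs) Cdk2, Cdk4 and Cdk6, and the CDK inhibitors Cdkn1b and Cdkn2b. Total RNA came from the mouse embryonic stem cell line E14Tg2a, of strain 129/Ola, whose endogenous CTCF carries a degron, a tag through which auxin triggers its destruction. CTCF, whose zinc fingers read DNA and which helps to fold chromosomes into loops, was supplied instead by a transgene under doxycycline control, with the change R342C, K365T or Q418R in the DNA-binding domain, or as wild type (WT). Every culture of all 4 lines had been given the auxin indole-3-acetic acid at 500 µM, together with 1 µg/ml doxycycline, over 2 days, so that no group without auxin enters the comparisons. The loss of endogenous CTCF was not measured in these data. The no LIF groups were grown for 3 days without leukemia inhibitory factor (LIF) and the inhibitors CHIR99021 and PD0325901. Removal of LIF and the inhibitors starts the exit from naive pluripotency. The LIF groups stayed in serum medium with LIF, 3 µM CHIR99021 and 1 µM PD0325901. There were 2 libraries for each of the 8 groups, and since each genotype was a single line, genotype and line cannot be told apart.

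In textbook accounts of the cell cycle, growth signals raise the D cyclins, which bind Cdk4 or Cdk6 and phosphorylate the retinoblastoma protein. This frees E2F factors, which switch on the E cyclins, and cyclin E with Cdk2 completes the phosphorylation and starts DNA replication. Cdkn2b belongs to the INK4 inhibitors, which bind Cdk4 and Cdk6, and Cdkn1b to the Cip/Kip inhibitors, which bind cyclin E with Cdk2. Mouse embryonic stem cells grown in serum with LIF are known for a short G1 phase with little D cyclin and much cyclin E. Their G1 phase is longer once they differentiate. The LIF groups here also had CHIR99021 and PD0325901, and the length of G1 was not measured in any group. CHIR99021 inhibits the kinase GSK3, and PD0325901 inhibits MEK, a kinase upstream of ERK, through which growth factors induce Ccnd1.

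Libraries held 19721363 to 31935381 reads, recovered from the normalised counts, and the 2 media made the main difference between them, which showed in a first principal component holding 76.5% of the variance. The pair of WT libraries without LIF differed more than any other replicate pair, with a chi-square per gene of 55.4 against 17.3 to 41.4 in the other 7 pairs. Ctcf lay between 5292 and 8585 normalised counts in all 16 libraries and passed none of the 15 tests in limma, and these reads do not separate transgene from endogenous RNA. Of 11 markers of pluripotent cells all 11 averaged at least 10 normalised counts in both media, and their summed level was 2258 to 2815 TPM (a level scaled for gene length and library size) without LIF and 4330 to 5926 TPM in LIF. Of 7 markers of extraembryonic endoderm 5 reached that level without LIF and 4 in LIF, and their sum was 22.6 to 39.5 TPM without LIF and 8.54 to 16.1 TPM in LIF. The sum of 8 fibroblast markers was 26.8 to 47.0 TPM without LIF and 25.2 to 35.0 TPM in LIF, with Lum at 0 in every library without LIF. Neuroectoderm, mesoderm and trophectoderm markers summed to 48.1 to 95.1, 11.1 to 35.5 and 21.5 to 55.8 TPM without LIF, and to 63.5 to 141, 6.58 to 12.9 and 46.8 to 98.1 TPM in LIF. The part of these cell types in the results was not tested, and in such bulk RNA fewer cells of a type and less RNA per cell cannot be told apart.

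RefSeq gave the promoter sequence of 7 members in 8 windows (build GRCm38.p6), and 3 are shown as examples. The first is Cdkn2b, whose response to the medium differed between K365T and WT in limma, a call that 6 of 27 alternatives kept. The others are Cdk4, the most abundant member and one that passed no test, and Cdk6, its low-abundance counterpart, which fell in all 4 lines. Each covers the 250 bases before the start site, from 5′ to 3′ on the strand of the gene. Capitals mark the palindrome TGACGTCA, a cyclic AMP response element, in Cdkn2b (chr4:89311033-89311282, minus strand), and CACGTG, the E-box bound by Myc and its relatives, in Cdk4 (chr10:127063285-127063534, plus strand) and Cdk6 (chr5:3343643-3343892, plus strand, inside the span of the gene in GENCODE).
Cdkn2b: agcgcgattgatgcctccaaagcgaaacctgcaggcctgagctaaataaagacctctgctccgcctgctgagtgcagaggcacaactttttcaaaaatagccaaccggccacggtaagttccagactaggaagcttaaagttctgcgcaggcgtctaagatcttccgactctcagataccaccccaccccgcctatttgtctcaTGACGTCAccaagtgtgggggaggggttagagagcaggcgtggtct
Cdk4: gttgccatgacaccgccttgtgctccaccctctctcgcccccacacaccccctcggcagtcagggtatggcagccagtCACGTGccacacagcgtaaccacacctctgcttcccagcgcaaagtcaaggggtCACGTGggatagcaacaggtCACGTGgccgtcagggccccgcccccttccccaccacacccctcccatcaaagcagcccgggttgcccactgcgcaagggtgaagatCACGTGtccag
Cdk6: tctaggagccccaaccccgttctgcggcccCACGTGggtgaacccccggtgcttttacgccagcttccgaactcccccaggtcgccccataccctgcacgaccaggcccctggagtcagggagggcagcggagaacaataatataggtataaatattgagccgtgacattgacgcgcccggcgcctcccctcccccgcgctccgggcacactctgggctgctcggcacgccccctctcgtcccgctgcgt
The E-box was read at 4 places in the Cdk4 window (starting at -172, -118, -98 and -11 from the start site) and at 1 place in the Cdk6 window (-220), and 6.02% of 32851 windows of all promoters held it on either strand. The core of that response element, TGACGT, stood in the Cdkn2b window on both strands, at -46 and -44, in the Cdk2 window at -54 and in the downstream of 2 Ccnd3 windows at -28, against 6.47% of all windows. An E2F site spelled TTTCCCGC stood in the Cdk2 window at -140 (0.895% of all windows), and the spellings TTTCGCGC (0.256%) and TTTGGCGC (0.417%) were in none of the 8. The GC box GGGCGG was in every window of these genes except those of Cdk6 and Cdkn2b (32.7% of all windows), and the TCF/LEF motif CTTTGA in that of Cdk4 at -51 (13.8%). The AP-1 motif TGANTCA (6.75%), the STAT motif TTCNNNGAA (7.02%) and the CTCF core motif (0.904%) had no match in the 8 windows. All motifs were searched on both strands, the palindrome in Cdkn2b holds the core once per strand, and a match is a run of letters, not a bound site.

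Per length, Cdk4 was the most abundant of the 10 genes, with a median of 322 TPM (223 to 354) over the 8 libraries without LIF and 273 TPM (215 to 296) over the 8 in LIF. Ccne1 followed, with a median of 135 TPM (75.8 to 164) without LIF and 74.4 TPM (63.5 to 99.1) in LIF, and then Cdkn1b, with 77.5 TPM (44.4 to 103) without LIF and 72.1 TPM (51.7 to 84.5) in LIF. The order of the other 7 differed between media. Without LIF it ran Ccnd1 (63.3 TPM), Cdk2 (30.9), Ccnd3 (27.3), Ccne2 (16.5), Cdkn2b (10.6), Ccnd2 (9.97) and Cdk6 (6.08). In LIF it ran Ccnd3 (45.3 TPM), Cdk2 (38.1), Ccnd1 (20.9), Ccne2 (16.1), Cdk6 (11.9), Cdkn2b (6.13) and Ccnd2 (1.37). Neighbours in these orders overlapped in their ranges over libraries, apart from Cdk4, which stood clear of Ccne1 in both media, and in LIF Cdkn2b, which stood clear of Ccnd2. Thus by its median level Ccnd1 was the leading D cyclin without LIF and Ccnd3 in LIF, except in K365T replicate 2 in LIF, where Ccnd1 stood above Ccnd3. Cdk4 outweighed Cdk6 in both media.

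**Figure D1:**
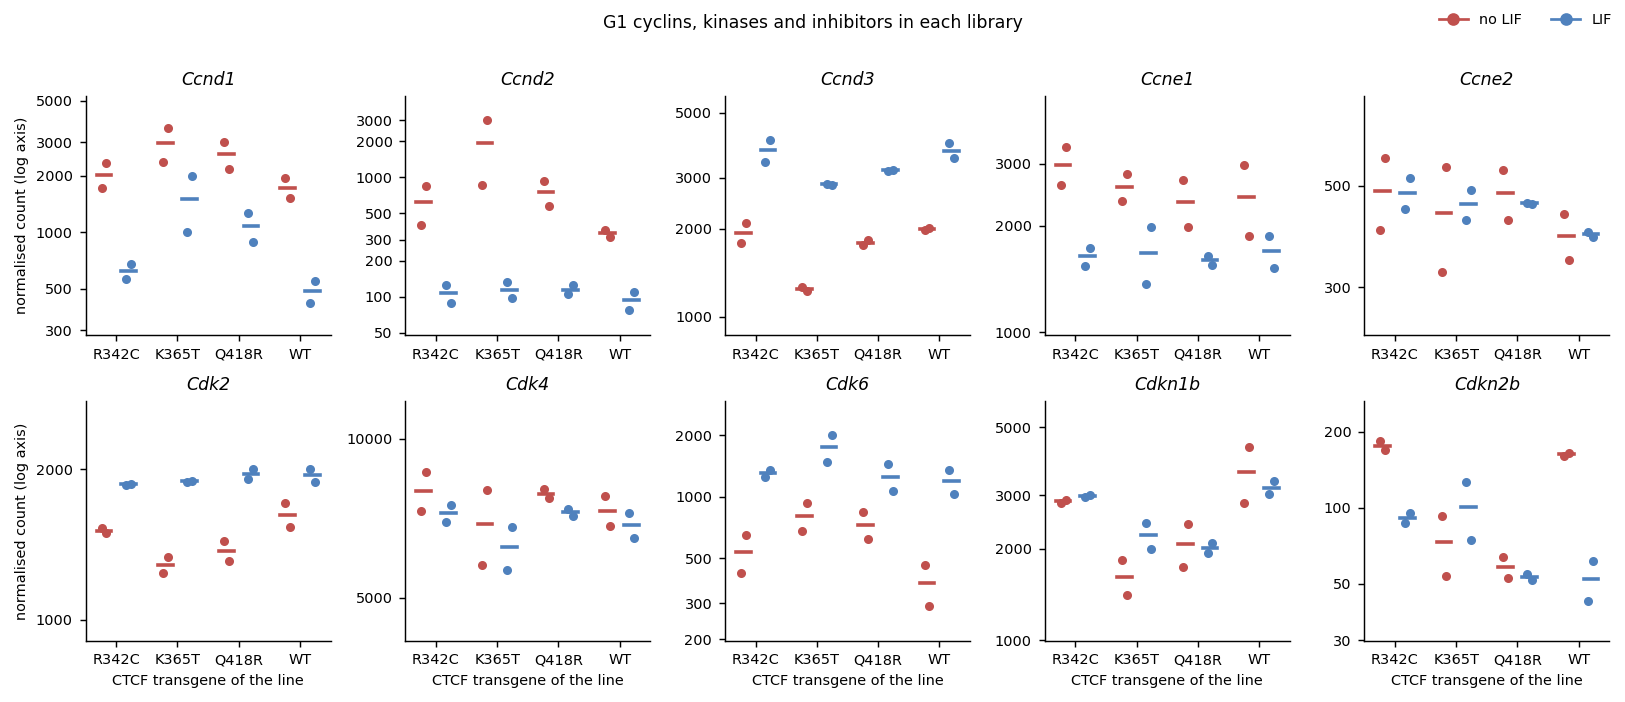
Normalised count (log axis) of each gene in each library, by line and medium; points are libraries and short lines are the means of 2. Ccnd2 lies higher, and Ccnd3, Cdk2 and Cdk6 lie lower, in all 8 libraries without LIF than in all 8 in LIF.

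Removal of LIF and the inhibitors moved 6 of the 10 genes in WT, with Ccnd1, Ccnd2 and Cdkn2b higher and Ccnd3, Cdk2 and Cdk6 lower. In R342C 4 rose and 3 fell, in K365T 3 rose and 3 fell, and in Q418R 2 rose and 3 fell, each at an adjusted p under 0.05 in limma. These counts stand against a background in which close to 1 gene of every 2 moved: of 17757 genes, 23.3% were called higher and 23.9% lower in R342C, 21.6% and 23.0% in K365T, 23.0% and 23.5% in Q418R, and 23.8% and 24.9% in WT. Of the 10 members 7 were called in R342C, 6 in K365T, 5 in Q418R and 6 in WT. The background was 47.2%, 44.7%, 46.5% and 48.8% of all genes in that order. The members' shares lay above it by a few genes at most, which was not tested. The results lie in which members moved and by how much. The median log2 difference of the members was 0.07 in R342C, -0.28 in K365T, 0.09 in Q418R and 0.12 in WT, and the median of all genes lay between -0.02 and 0.00.

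The D cyclin Ccnd1 (chromosome 7, 144929931 to 144939925, mm10, minus strand), the classic growth factor-induced cyclin, rose in every line. Its normalised counts were 1714 and 2333 without LIF against 564 and 675 in LIF in R342C, 2366 and 3593 against 996 and 1998 in K365T, 3030.5 and 2156 against 1256 and 888 in Q418R, and 1945 and 1509 against 421 and 549 in WT. The 2 libraries without LIF lay above the 2 in LIF in each line, but K365T replicate 2 in LIF overlapped the no LIF libraries of other lines. The log2 differences were 1.69 ± 0.31 in R342C, 1.04 ± 0.31 in K365T, 1.27 ± 0.31 in Q418R and 1.83 ± 0.31 in WT (SE, n = 2 libraries a group), with limma adjusted p of 0.000369, 0.0121, 0.00329 and 0.000187. In K365T the call ended without LIF replicate 1 (0.54, adjusted p = 0.192) or without no LIF replicate 2 (0.74, adjusted p = 0.113).

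Ccnd2 (chromosome 6, 127125162 to 127152193, minus strand), a D cyclin that is low in naive cells, showed the widest range of the family. It had 395 and 845 normalised counts without LIF against 125 and 89.3 in LIF in R342C, 862 and 2998 against 133 and 97.5 in K365T, 921 and 572 against 105 and 125 in Q418R, and 363 and 316 against 77.1 and 110.2 in WT. All 8 libraries without LIF lay above all 8 in LIF, and the 2 K365T libraries without LIF were far apart. Its level was 5.78 times higher without LIF than in LIF in R342C, 16.8 times in K365T, 6.49 times in Q418R and 3.63 times in WT. The log2 differences were 2.41, 3.77, 2.62 and 1.83 (each ± 0.47 SE), with adjusted p of 0.000666, 1.41e-05, 0.000339 and 0.00475 in limma. None of the 27 alternatives ended these calls in any line. The size of the K365T value rests on 1 library, since no LIF replicate 1 stood 7.49 times and replicate 2 26.0 times above the mean in LIF, and the log2 difference was 2.88 without replicate 2 and 4.67 without replicate 1.

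Ccnd3 (chromosome 17, 47505051 to 47599691, plus strand), the D cyclin with the highest median level in LIF, fell in every line. It had 1787 and 2087 normalised counts without LIF against 3399 and 4050.3 in LIF in R342C, 1262 and 1224 against 2859.5 and 2823 in K365T, 1753 and 1837 against 3169 and 3178 in Q418R, and 1974 and 2018 against 3933 and 3492 in WT. Every library without LIF lay below every library in LIF, and the replicates were close. The log2 differences were -0.94 ± 0.11 in R342C, -1.19 ± 0.11 in K365T, -0.82 ± 0.11 in Q418R and -0.89 ± 0.11 in WT, with adjusted p of at most 3.4e-05 in limma, and none of the 27 alternatives ended them. By its genome span, Ccnd3 overlaps Bysl on the other strand over 361 bases, and Ccnd1 overlaps LTO1 over 1771 bases. Whether the counting used strand is not stated, so that the values of such pairs carry that uncertainty.

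Together these changes shifted the make-up of D cyclin RNA. In TPM, Ccnd1 made up a median of 61.8% of the summed D cyclins (54.9% to 68.4%) over the 8 libraries without LIF and 28.4% (16.4% to 56.1%) in LIF. Ccnd3 made up 28.8% (11.4% to 39.4%) without LIF and 69.3% (42.5% to 82.1%) in LIF, and Ccnd2 9.38% (5.70% to 26.1%) without LIF and 1.98% (1.37% to 2.56%) in LIF. For Ccnd2 and Ccnd3 the 2 media did not overlap, whereas for Ccnd1 K365T replicate 2 in LIF, at 56.1%, passed the lowest library without LIF and exceeded the 42.5% of Ccnd3 in that library. The summed level of the D cyclins was 96.8 TPM at the median (63.2 to 175) without LIF and 69.0 TPM (60.4 to 101) in LIF, ranges that overlap.

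**Figure D2:**
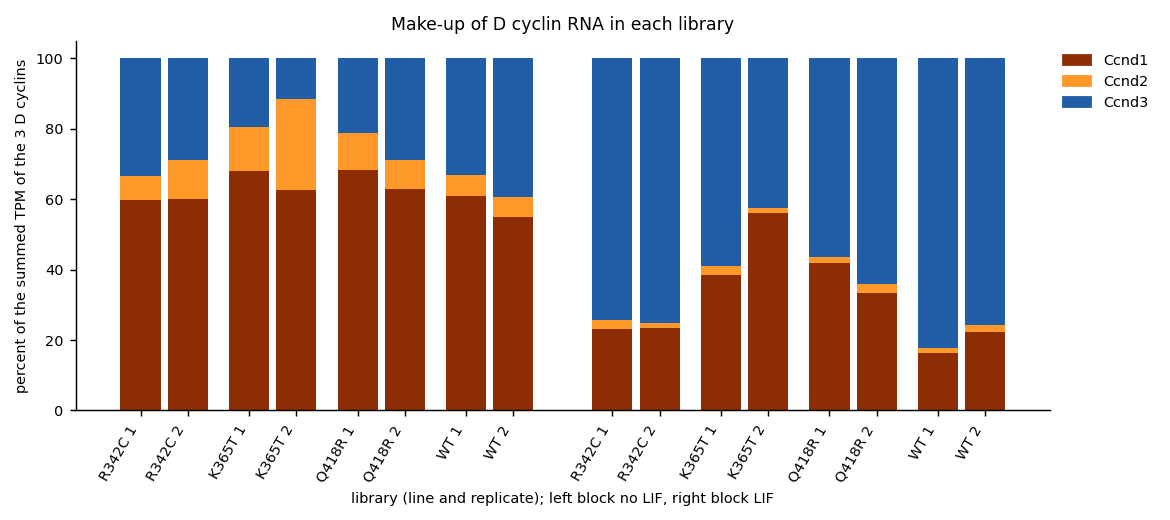
Percent of the summed TPM of the 3 D cyclins that each contributed, as stacked bars per library, with no LIF on the left and LIF on the right. Ccnd3 (blue) fills 42.5% to 82.1% of the bars in LIF and 11.4% to 39.4% without LIF, and K365T replicate 2 without LIF has the largest share of Ccnd2, 26.1%.

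The E cyclins moved less. Ccne1 (chromosome 7, 38097984 to 38107534, minus strand), which activates Cdk2, had 2612 and 3354 normalised counts without LIF against 1542 and 1735 in LIF in R342C, 2359 and 2809.6 against 1369.5 and 1982 in K365T, 2692 and 1979 against 1643 and 1552 in Q418R, and 2971 and 1868 against 1868 and 1524 in WT. The groups did not overlap in the 3 mutants and overlapped in WT. It rose in R342C (log2 difference 0.85 ± 0.23 SE, adjusted p = 0.0064) and K365T (0.64 ± 0.23, adjusted p = 0.0324) and did not pass the limma test in Q418R (0.53 ± 0.23, adjusted p = 0.0701) or WT (0.48 ± 0.23, adjusted p = 0.0959). The rise in R342C ended without LIF replicate 1 (0.77, adjusted p = 0.0516) or without no LIF replicate 2 (0.67, adjusted p = 0.0683), and that in K365T without LIF replicate 1 (0.38, adjusted p = 0.29), without no LIF replicate 2 (0.52, adjusted p = 0.158), with no filter on low values or in TPM. In Q418R 6 of 27 alternatives brought a call, among them upper-quartile scaling (0.62, adjusted p = 0.0306), DESeq2 (0.56, adjusted p = 0.0417) and the fit limited to the libraries compared (adjusted p = 0.0205), and in WT leaving out no LIF replicate 2 did (0.81, adjusted p = 0.0139). Ccne1 was higher without LIF in 8 of 8 same-numbered pairs of libraries, though the labels state no common origin of such pairs. A block of replicate number within each line was chosen after seeing the data. With it Ccne1 passed in all 4 lines, at adjusted p of 0.00356 in Q418R and 0.00622 in WT in limma. None of the 3 mutants' responses was shown to differ from that of WT, with differences of 0.37 ± 0.32, 0.16 ± 0.32 and 0.05 ± 0.32 in R342C, K365T and Q418R.

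Ccne2 (chromosome 4, 11191351 to 11204779, plus strand), the second E cyclin, ranged from 323 to 574 normalised counts without LIF, with a median of 427, and from 387 to 521 in LIF, with a median of 451. The media overlapped in every line, and the log2 differences lay between -0.11 and 0.06 (each ± 0.24 SE), with no call in any of the 15 comparisons. Ccne1 made up a median of 88.1% of the summed E cyclin TPM (86.0% to 90.5%) without LIF and 82.2% (81.1% to 86.1%) in LIF. Ccne2 overlaps Ints8 on the other strand over 5622 of its 13429 bases, and Ints8 had a mean of 2104 normalised counts against 447 for Ccne2.

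Among the kinases, Cdk6 (chromosome 5, 3341485 to 3531008, plus strand), a partner of the D cyclins, fell in every line. It had 420.1 and 652 normalised counts without LIF against 1244 and 1353 in LIF in R342C, 678 and 931 against 1486 and 1996 in K365T, 839 and 617 against 1442 and 1059 in Q418R, and 461 and 289.6 against 1344 and 1035 in WT. The 8 libraries without LIF lay below the 8 in LIF. The log2 differences were -1.30 in R342C, -1.11 in K365T, -0.78 in Q418R and -1.68 in WT (each ± 0.27 SE), with adjusted p of 0.0011, 0.00378, 0.0289 and 0.000132 in limma. In Q418R the call ended without LIF replicate 1 or without no LIF replicate 2 (-0.56 each, adjusted p = 0.209 and 0.206), with no filter on low values and in TPM, while in the other lines no alternative ended it.

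Cdk4 (chromosome 10, 127063534 to 127067920, plus strand), the other D cyclin kinase, did not pass the test for the medium in any line. It ranged from 5776 to 8637 normalised counts without LIF, with a median of 7741, and from 5653 to 7475 in LIF, with a median of 7051. The media overlapped in R342C, K365T and WT but not in Q418R, and the log2 differences lay between 0.09 and 0.14 (each ± 0.15 SE), with no call in any of the 15 comparisons. It was higher without LIF in 8 of 8 same-numbered pairs of libraries, and with the block within each line the adjusted p in limma lay between 0.214 and 0.415. Of the summed TPM of Cdk4 and Cdk6, Cdk4 made up a median of 98.2% (97.3% to 99.0%) without LIF and 95.9% (93.6% to 96.7%) in LIF. Cdk4 overlaps Tspan31 (mean 1269 normalised counts) on the other strand over 641 bases.

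Cdk2 (chromosome 10, 128697939 to 128705031, minus strand), the kinase of cyclin E, fell by a small amount. It had 1524 and 1493 normalised counts without LIF against 1864 and 1869.8 in LIF in R342C, 1240.2 and 1337 against 1885 and 1899.9 in K365T, 1437 and 1308 against 1917 and 2006 in Q418R, and 1711 and 1532 against 2003 and 1891 in WT. All 8 libraries without LIF lay below all 8 in LIF. The log2 differences were -0.31 in R342C, -0.55 in K365T, -0.52 in Q418R and -0.26 in WT (each ± 0.10 SE), with adjusted p of 0.0237, 0.000503, 0.000826 and 0.0454 in limma. The WT call ended under 15 of 27 alternatives, over which the difference lay between -0.34 and -0.19. Over all 27 the R342C difference lay between -0.32 and -0.25, and its call ended without any 1 of its 4 libraries and in TPM. That in Q418R ended in TPM (adjusted p = 0.0829), and that in K365T outlasted all 27. Pmel (mean 146 normalised counts, highest 484) overlaps Cdk2 on the other strand over 837 bases.

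**Figure D3:**
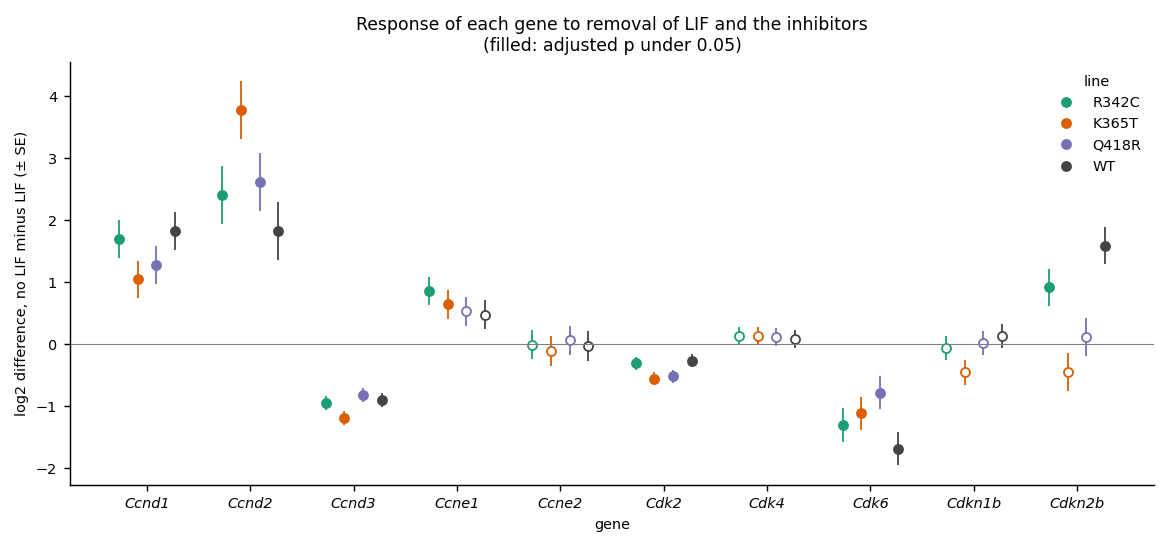
Log2 difference of each gene between no LIF and LIF in each line, with its SE; filled points passed an adjusted p under 0.05 in limma. Ccnd1, Ccnd2, Ccnd3, Cdk2 and Cdk6 are filled in all 4 lines, and Cdkn2b in R342C and WT, at 0.92 and 1.59.

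The inhibitor Cdkn1b (chromosome 6, 134920401 to 134925513, plus strand), which restrains cyclin E with Cdk2, did not pass the test for the medium in any line. It had 2834 and 2886 normalised counts without LIF against 2955 and 2994 in LIF in R342C, 1832 and 1409 against 2431 and 1994 in K365T, 1737 and 2412 against 1935 and 2087 in Q418R, and 2824 and 4319.7 against 3015 and 3326 in WT. In R342C and K365T the libraries without LIF were the lower ones, and in Q418R and WT the media overlapped. The log2 differences were -0.06 in R342C, -0.45 in K365T, 0.03 in Q418R and 0.14 in WT (each ± 0.19 SE), with adjusted p of 0.837, 0.0721, 0.924 and 0.576 in limma. With the replicate number as a block within each line, chosen after seeing the data, the K365T difference passed (adjusted p = 0.00817 in limma) and the other 3 did not.

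Cdkn2b (chromosome 4, 89306299 to 89311039, minus strand), the INK4 inhibitor of Cdk4 and Cdk6, rose in WT and R342C. It had 184 and 169 normalised counts without LIF against 87.3 and 95.9 in LIF in R342C, 92.7 and 53.6 against 127 and 74.9 in K365T, 63.8 and 53.0 against 54.8 and 51.8 in Q418R, and 161 and 165 against 42.8 and 61.6 in WT. The R342C and WT libraries separated by medium, and those of K365T and Q418R overlapped. The log2 difference was 0.92 ± 0.30 in R342C (adjusted p = 0.0221), -0.45 ± 0.30 in K365T (adjusted p = 0.255), 0.12 ± 0.30 in Q418R (adjusted p = 0.779) and 1.59 ± 0.30 in WT (SE; adjusted p = 0.000551 in limma). No alternative ended the WT call, whereas the R342C call ended without any 1 of the 4 R342C libraries (0.85 to 0.98, adjusted p from 0.0596 to 0.105).

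The response of Cdkn2b in K365T was lower than that in WT by the test of the difference itself, by -2.04 ± 0.43 on the log2 scale (adjusted p = 0.0466 in limma). Across the 10 genes this was the 1 call among the tests of a mutant's response against that of WT, where 0.332% of all genes were called higher and 0.327% lower for K365T, 0.0901% and 0.0507% for Q418R, and 0% in both directions for R342C. For R342C and Q418R 0 members were called by limma, edgeR and DESeq2, with 0 members at an unadjusted p under 0.05 in R342C and 2 in Q418R, Cdk6 (0.90 ± 0.38) and Cdkn2b (-1.47 ± 0.43, adjusted p = 0.281). The K365T difference in Cdkn2b kept its sign under all 27 alternatives (-2.41 to -1.66) but its call under 6. Leaving out any 1 library except K365T no LIF replicate 1 ended the call, with the largest adjusted p of 0.18 without WT LIF replicate 1 (-1.79) and 0.16 without K365T LIF replicate 1 (-1.67).

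The neighbour of Cdkn2b, Cdkn2a (chromosome 4, 89274471 to 89294653, minus strand), which encodes an INK4 inhibitor and the p53 activator ARF, showed differences of the same signs. It had 145 and 156 normalised counts without LIF against 63.7 and 68.9 in LIF in R342C, 126 and 76.4 against 207 and 176 in K365T, 138 and 139 against 113 and 86.6 in Q418R, and 123 and 198 against 45.2 and 77.8 in WT. The log2 difference was 1.14 in R342C and 1.33 in WT, where it rose, -0.93 in K365T, where it fell, and 0.47 in Q418R (adjusted p = 0.236). The K365T response was lower than that of WT by -2.26 ± 0.44 (adjusted p = 0.0332 in limma), a call that 9 of 27 alternatives ended, among them leaving out WT LIF replicate 1 (-1.89, adjusted p = 0.145), WT no LIF replicate 2, K365T LIF replicate 1 or 2, K365T no LIF replicate 2 (-1.91, adjusted p = 0.081), or either R342C replicate in LIF. The fall of Cdkn2a in K365T ended without LIF replicate 1 (-0.81), LIF replicate 2 (-1.04) or no LIF replicate 2 (-0.58). Mtap, the next tested gene on that side, was at 0.07 in R342C, -0.26 in K365T and -0.02 in WT, with no call, and fell in Q418R (-0.36, adjusted p = 0.0296).

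**Figure D4:**
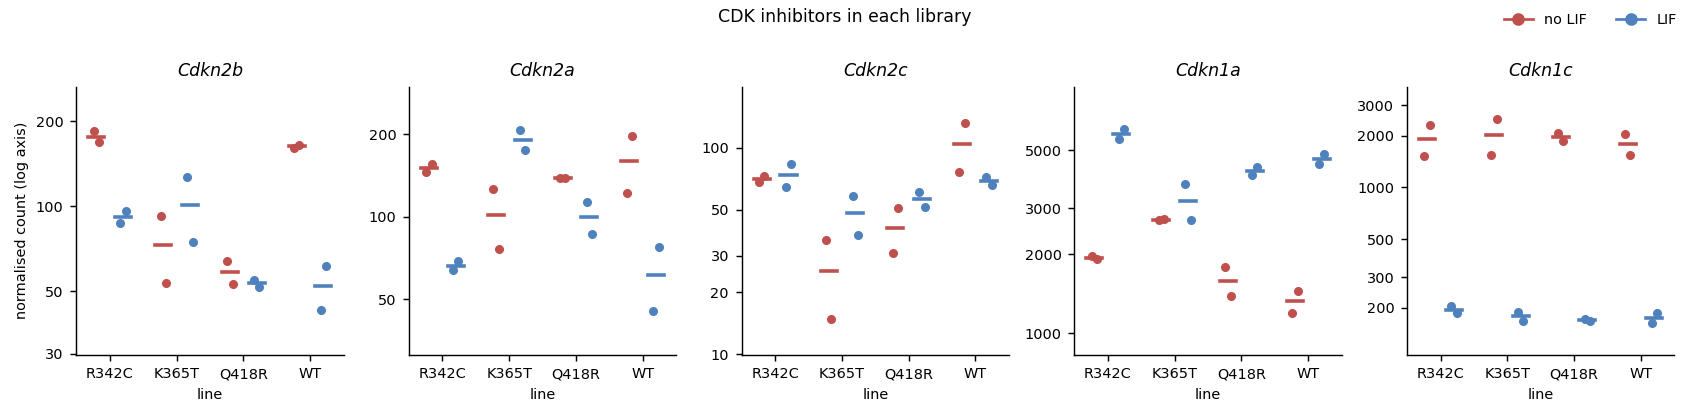
Normalised count (log axis) of 5 CDK inhibitor genes in each library, by line and medium; points are libraries and short lines are the means of 2. Cdkn2b in WT stands at 161 and 165 without LIF against 42.8 and 61.6 in LIF, and in Q418R at 63.8 and 53.0 against 54.8 and 51.8.

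Set against WT in LIF, the R342C line had 0 of 10 members called, K365T 2 and Q418R 0. Of all genes, 0.332% were called higher and 0.0845% lower in R342C, 6.42% higher and 4.66% lower in K365T, and 1.86% higher and 2.38% lower in Q418R. In R342C edgeR and DESeq2 also called 0 members, and 1 had an unadjusted p under 0.05, Cdkn2b (0.78 ± 0.30). In Q418R, where limma called 0 and 2 had an unadjusted p under 0.05, edgeR called 0 and DESeq2 called both, Ccnd1 (1.13 ± 0.31, adjusted p = 0.0534 in limma) and Cdkn1b (-0.66 ± 0.19, adjusted p = 0.0784). All mutant lines share the WT libraries, so that the values of R342C, K365T and Q418R against WT are not independent of each other.

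In K365T in LIF, Ccnd1 was higher than in WT, with 996 and 1998 normalised counts in K365T against 421 and 549 in WT, a log2 difference of 1.55 ± 0.31 (adjusted p = 0.00617 in limma). The groups did not overlap, and the call ended without K365T replicate 2 (1.05, adjusted p = 0.0779) or without WT replicate 1 (1.36, adjusted p = 0.0636). Ccnd3 was lower, with 2859.5 and 2823 in K365T against 3933 and 3492 in WT, a difference of -0.38 ± 0.11 (adjusted p = 0.0432), and this call ended under 11 of 27 alternatives (-0.47 to -0.25). The median of the 165 tested genes within 10 Mb of Ccnd3 was -0.13. Among the 3 mutants in LIF, the F test found a difference in 1 member, Ccnd1 (adjusted p = 0.0486 in limma), against 11.0% of all genes. There R342C, with 564 and 675 normalised counts, lay below K365T, with 996 and 1998, and below Q418R, with 1256 and 888.

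Without LIF more members stood apart from WT: 6 in K365T and 3 in Q418R, and 0 in R342C by limma, edgeR and DESeq2, with 0 also at an unadjusted p under 0.05. Of all genes, 0.372% were called higher and 0.107% lower in R342C, 7.38% higher and 7.33% lower in K365T, and 3.02% higher and 3.13% lower in Q418R. In K365T Ccnd2 and Cdk6 were higher than in WT, and Ccnd3, Cdk2, Cdkn1b and Cdkn2b were lower. In Q418R Cdk6 was higher, and Cdkn1b and Cdkn2b were lower. Among the mutants the F test called 3 members, Ccnd3 (adjusted p = 0.00747 in limma), Cdkn1b (0.0374) and Cdkn2b (0.0122), against 9.15% of all genes.

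Both inhibitors were thus lower than in WT in the K365T and Q418R lines without LIF. Cdkn1b had 1832 and 1409 normalised counts in K365T and 1737 and 2412 in Q418R, against 2824 and 4319.7 in WT, with log2 differences of -1.12 ± 0.19 in K365T (adjusted p = 0.0026) and -0.77 ± 0.19 in Q418R (adjusted p = 0.0312 in limma). Cdkn2b had 92.7 and 53.6 in K365T and 63.8 and 53.0 in Q418R, against 161 and 165 in WT, with differences of -1.16 ± 0.30 (adjusted p = 0.0212) and -1.43 ± 0.30 (adjusted p = 0.0137). None of these groups overlapped. The Cdkn1b call in Q418R ended without WT replicate 2 (-0.46, adjusted p = 0.323) or without Q418R replicate 1 (-0.53, adjusted p = 0.287), with no filter on low values and in TPM, while that in K365T outlasted each library left out. The Cdkn2b call in K365T ended without WT replicate 1 (-1.18, adjusted p = 0.0568), without WT replicate 2 (-1.14, adjusted p = 0.107) or without K365T replicate 2 (-0.79, adjusted p = 0.176), and in Q418R without WT replicate 2 (-1.41, adjusted p = 0.0931) or either Q418R replicate (-1.55 and -1.30, adjusted p = 0.0642 and 0.0737).

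Ccnd2 without LIF had 862 and 2998 normalised counts in K365T against 363 and 316 in WT, a log2 difference of 2.23 ± 0.47 (adjusted p = 0.00724 in limma). Without K365T replicate 2, which had the higher value, the difference was 1.34 (adjusted p = 0.0642), and without WT replicate 2 it was 2.14 (adjusted p = 0.0546). In Q418R, with 921 and 572, it was 1.09 ± 0.47 (adjusted p = 0.181), and in R342C, with 395 and 845, 0.76 ± 0.47 (adjusted p = 0.933). In each mutant the libraries lay above those of WT, though the test was passed in K365T alone of the 3. The difference between the response of K365T and that of WT was 1.94 ± 0.66 (adjusted p = 0.228).

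Cdk6 without LIF had 678 and 931 normalised counts in K365T and 839 and 617 in Q418R, against 461 and 289.6 in WT, with log2 differences of 1.11 ± 0.27 (adjusted p = 0.0155) and 0.97 ± 0.27 (adjusted p = 0.0484 in limma). The K365T call ended without K365T replicate 2 (0.88, adjusted p = 0.112) or WT replicate 2 (0.78, adjusted p = 0.158), and the Q418R call under 18 of 27 alternatives (0.64 to 1.30). Ccnd3 had 1262 and 1224 in K365T against 1974 and 2018 in WT, a difference of -0.68 ± 0.11 (adjusted p = 0.00206), and its call outlasted each library left out. Cdk2 had 1240.2 and 1337 in K365T against 1711 and 1532 in WT, a difference of -0.33 ± 0.10 (adjusted p = 0.0448) that 18 of 27 alternatives ended (-0.41 to -0.16). With the fit limited to the 4 libraries compared, 0 of the K365T and 0 of the Q418R calls against WT without LIF passed. That fit takes its spread from 4 libraries instead of all 16. How many of all genes it called is not given here, so that the 0 is not a result about these members.

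The surroundings of some members differed between lines as well. In Q418R the 906 other tested genes of chromosome 6, which holds Ccnd2 and Cdkn1b, had a median log2 difference from WT of -0.35 without LIF and -0.38 in LIF, and the 119 within 10 Mb of Cdkn1b a median of -0.32 in both media. Cdkn1b in Q418R was at -0.77 without LIF and -0.66 in LIF, and Ccnd2 at 1.09 and 0.30. Within 10 Mb of Cdk6 the median in Q418R was -0.32 without LIF and -0.41 in LIF, whereas Cdk6 was at 0.97 and 0.07. Around Cdkn2b, on chromosome 4, the median without LIF was 0.05 in K365T and 0.12 in Q418R, whereas Cdkn2b was at -1.16 and -1.43. In K365T the medians within 10 Mb of the 10 members lay between -0.24 and 0.12 over both media, among them -0.16 around Ccnd1 in LIF, and -0.17 around Ccnd3 and -0.20 around Cdk2 without LIF. The part of these regional differences in the values of the members was not tested.

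**Figure D5:**
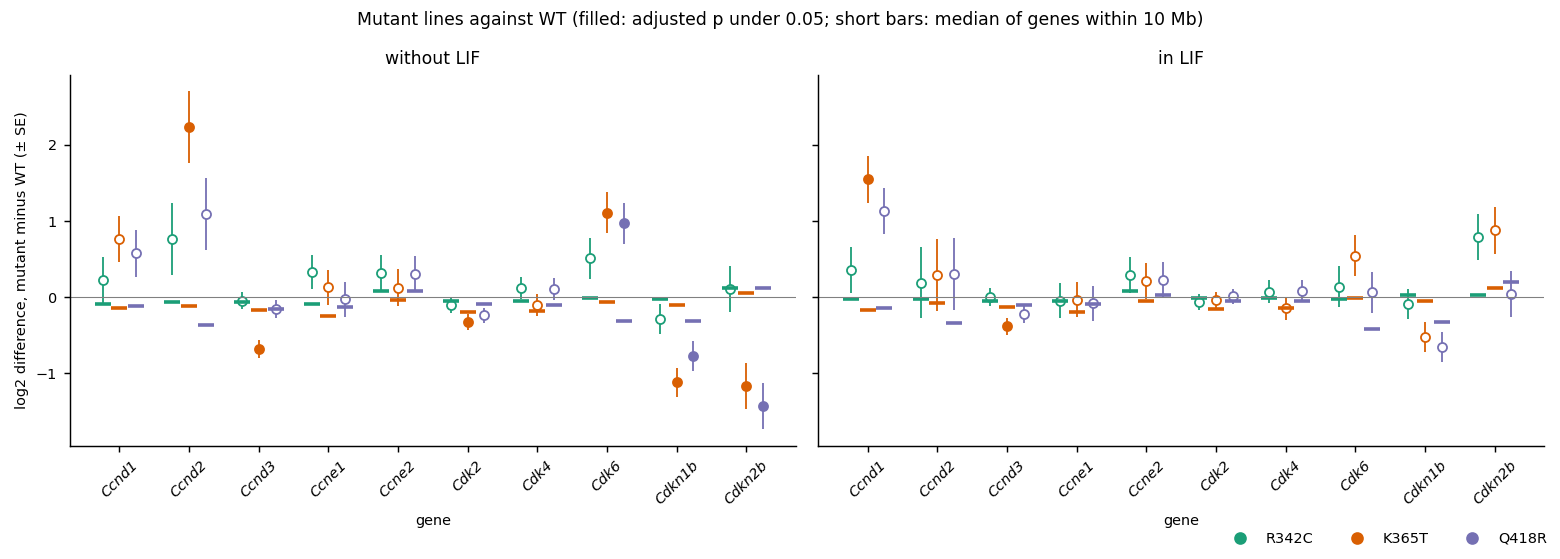
Log2 difference of each mutant line from WT, with its SE, without LIF (left) and in LIF (right); filled points passed an adjusted p under 0.05 in limma, and short bars give the median of the other genes within 10 Mb. Cdkn1b and Cdkn2b lie below 0 in K365T (-1.12 and -1.16) and Q418R (-0.77 and -1.43) without LIF, and R342C has no filled point.

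Other genes of the pathway were counted in 7 lists of 61 genes, and their counts between media stand against 47.2% of all genes called in R342C, 44.7% in K365T, 46.5% in Q418R and 48.8% in WT. Of 5 other CDK inhibitors 2 rose and 2 fell in R342C, 1 rose and 2 fell in K365T, 1 rose and 2 fell in Q418R, and 2 rose and 2 fell in WT when LIF was removed. Cdkn1c, a Cip/Kip inhibitor, rose in all 4 lines, by 3.23, 3.43, 3.50 and 3.32 on the log2 scale in R342C, K365T, Q418R and WT. Cdkn1a, the Cip/Kip inhibitor known as a p53 target, had 1973 and 1914 normalised counts without LIF against 5507 and 6042 in LIF in R342C, 2697 and 2734 against 3708 and 2719 in K365T, 1791 and 1387 against 4032 and 4321 in Q418R, and 1197 and 1452 against 4427 and 4860.3 in WT. It fell in R342C (-1.57), Q418R (-1.40) and WT (-1.81), and in K365T it was at -0.23 (adjusted p = 0.257). The K365T response was higher than that of WT by 1.59 ± 0.22 (adjusted p = 0.00964 in limma), and of the 27 alternatives the fit limited to the libraries compared ended this call.

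The targets of the kinases and the factors they release moved in both directions. Of 3 pocket proteins, the substrates of the cyclin-CDK complexes, Rbl1 fell in all 4 lines (-0.97 in R342C, -0.76 in K365T, -0.93 in Q418R and -0.99 in WT) and Rb1 rose in K365T (0.79), Q418R (0.77) and WT (0.63), the WT call ending without WT LIF replicate 1 (0.48, adjusted p = 0.0506). In R342C 0 of the 3 pocket proteins rose and 2 fell, Rbl1 and Rbl2. The Rbl2 difference lay between -0.98 and -0.55 over the alternatives, and 9 of 27 kept its call. Of 10 E2F and DP factors 3 rose in each line and 1 fell in R342C, 2 in K365T, 1 in Q418R and 1 in WT. The repressors E2f7 and E2f8 rose in all 4 lines, E2f8 by 1.47 in R342C, 1.23 in K365T, 1.63 in Q418R and 1.32 in WT. None of the 27 alternatives ended the calls of Rbl1, E2f7 and E2f8 in any line.

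Of 18 S phase genes known as E2F targets 2 rose and 3 fell in R342C, 0 rose and 5 fell in K365T, 1 rose and 5 fell in Q418R, and 2 rose and 3 fell in WT. Rrm2, a subunit of ribonucleotide reductase, fell by 1.45 in R342C, 1.25 in K365T, 1.93 in Q418R and 1.60 in WT, and thymidine kinase Tk1 fell by 1.20, 1.40, 1.50 and 1.30. The median of this list was -0.05 in R342C, -0.21 in K365T, -0.17 in Q418R and -0.11 in WT. Of 9 G2 and mitosis genes 1 rose in R342C, 1 fell in K365T and in Q418R, and 1 rose and 1 fell in WT. The shares of these 2 lists that moved lay below the 44.7% to 48.8% of all genes called in the 4 lines.

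Among 10 genes that activate CDKs, control their turnover or, as Wee1 does, inhibit them, 3 rose in R342C and 2 in each other line, and 0 fell by limma. Cks1b, a CDK-binding subunit, rose in R342C (0.75), K365T (0.55), Q418R (0.64) and WT (0.75), and Wee1, an inhibitory kinase of CDKs, by 0.62, 0.47, 0.67 and 0.55. The Wee1 call ended in R342C without LIF replicate 1 (0.51, adjusted p = 0.0536), in K365T without LIF replicate 1 (0.32, adjusted p = 0.202) or no LIF replicate 1 (0.20, adjusted p = 0.307), and in WT without LIF replicate 2 (0.49, adjusted p = 0.061). Of 6 Myc and Foxo factors 1 rose and 2 fell in R342C, 2 rose and 1 fell in K365T, 1 rose and 1 fell in Q418R, and 0 rose and 2 fell in WT. Zbtb17, a partner of Myc on the Cdkn2b promoter, fell in all 4 lines (-0.58 in R342C, -0.78 in K365T, -0.62 in Q418R and -0.63 in WT).

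Between lines, K365T again had the most calls, against a background of 6.42% of all genes higher and 4.66% lower than in WT in LIF, and of 7.38% higher and 7.33% lower without LIF. In LIF it differed from WT in 2 of 5 other inhibitors, with Cdkn2a higher (1.62 ± 0.31, adjusted p = 0.00511 in limma) and Cdkn1a lower (-0.55 ± 0.15, adjusted p = 0.0348). The Cdkn2a call ended without WT replicate 1 (1.25, adjusted p = 0.0661), and that of Cdkn1a without K365T replicate 2 (-0.32, adjusted p = 0.317), WT replicate 1 (-0.61, adjusted p = 0.097) or WT replicate 2 (-0.48, adjusted p = 0.203). Without LIF Cdkn2c, an INK4 inhibitor, had 35.8 and 14.8 normalised counts in K365T against 76.6 and 132 in WT, a difference of -1.94 ± 0.38 (adjusted p = 0.00526) that ended without WT replicate 2 (-1.56, adjusted p = 0.0641) or K365T replicate 2 (-1.40, adjusted p = 0.0511). Cdkn1a was higher there (1.04 ± 0.15, adjusted p = 0.00103) and Cdkn2d, another INK4 inhibitor, lower (-0.59, a call that 13 of 27 alternatives ended). The fit limited to the libraries compared ended the calls of Cdkn1a (adjusted p = 0.172 in limma), Cdkn2c and Cdkn2d. Of the 18 S phase genes 5 were higher in K365T in LIF, among them the replication licensing genes Cdc6 (0.87), Mcm6 (0.74), Mcm5 (0.59) and Mcm3 (0.59). No alternative ended the call of Mcm6, while those of Mcm3 and Mcm5 ended without K365T replicate 2 (0.48 and 0.43) or WT replicate 2 (0.46 and 0.43), and that of Cdc6 under 10 of 27. The genes within 10 Mb of Mcm6 and Mcm3, on chromosome 1, had medians of 0.52 and 0.50, those near Cdc6, on chromosome 11, a median of 0.35, and those near Mcm5, on chromosome 8, a median of 0.18. The other tested genes of these whole chromosomes had medians of 0.47, 0.33 and 0.21, against -0.02 for all genes. The part of these regional and chromosome-wide differences in the values of the licensing genes was not tested. Of 9 G2 and mitosis genes 2 were lower in K365T in LIF, the proliferation marker Mki67 (-0.46, a call that 15 of 27 alternatives ended) and the mitotic activator Cdc20 (-0.44), whose call ended without K365T replicate 1 (-0.33) or either WT replicate (-0.43 and -0.45). Without LIF Mycn (1.12), Mcm3 (0.51), E2f7 (0.44), Mcm6 (0.44) and Rbl1 (0.42) were higher in K365T than in WT, and E2f8 (-0.45), Mnat1 (-0.44), Tfdp2 (-0.40) and Cks1b (-0.40) were lower. Each of these 9 calls ended without WT replicate 2, with values there of 0.52, 0.38, 0.32, 0.39 and 0.41 for the first 5 and -0.50, -0.55, -0.31 and -0.41 for the other 4. Of the 27 alternatives 24 kept the call of Mcm3, 23 that of E2f7, 23 that of Rbl1, 22 that of Tfdp2, 22 that of Cks1b, 19 that of Mcm6, 17 that of E2f8, 10 that of Mycn and 7 that of Mnat1. Without LIF the medians within 10 Mb were 0.36 around Mcm3 and 0.51 around Mcm6, and that of chromosome 1 was 0.44, so that Mcm6 stood at the level of its chromosome.

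In Q418R the calls outside the 10 members fell on the Myc and Foxo list and 1 E2F factor, against 4.25% of all genes called in LIF and 6.15% without LIF. Without LIF the Myc family genes Mycn (1.78 ± 0.35, adjusted p = 0.00895 in limma), Mycl (1.04 ± 0.19, adjusted p = 0.00626), and Foxo1 (0.75 ± 0.18, adjusted p = 0.025), of a family that can switch on Cdkn1b, were higher than in WT, and in LIF Mycl (1.06 ± 0.19, adjusted p = 0.00699) was higher and E2f8 (-0.61) lower. All 3 calls without LIF ended without WT replicate 2 (1.18, 1.00 and 0.59 for Mycn, Mycl and Foxo1), and those of Mycn and Foxo1 also without Q418R replicate 1 (1.39 and 0.63). In LIF, Mycl ended without Q418R replicate 2 (0.82) or WT replicate 1 (0.87), and E2f8 without any 1 of the 4 libraries compared. R342C had 0 calls against WT in the 7 lists in either medium by limma. Of all genes 0.417% were called in R342C in LIF and 0.479% without LIF, so that this 0 is near the background.

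The genes whose log2 values over the 16 libraries were most like those of the 3 members with the widest range were, for Ccnd2, Vgf, a neuropeptide precursor (Pearson r = 0.967), Ro60, an RNA-binding protein (0.965), and Rab6b, a small GTPase (0.953). For Ccnd1 they were Hecw2 (0.966), Hdx (0.965) and Glul, glutamine synthetase (0.965). For Cdk6 they were Ddx19a, an RNA helicase (0.981), Usp38 (0.976) and Bpnt1 (0.974). These are descriptions over libraries that fall into 2 media, so that any gene with a large difference between the media scores high.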

How the data were processed

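Total RNA, depleted of ribosomal RNA and sequenced from strand-specific libraries per the labels' protocols, was measured in 16 libraries. Per the submitters' processing notes the authors used Trim Galore, STAR and DESeq2 with the build mm10, and versions, counting tool and strand setting are not given in the sources used here. The authors deposited normalised counts, a signal that is a read count divided by a size factor per library, and a table of TPM. Whole reads could be recovered from the normalised counts for 100% of values within 0.05, giving 19721363 to 31935381 reads per library, and these served for edgeR 4.0.16 and DESeq2 1.42.0 as alternatives.

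Genes averaging 10 or more normalised counts (17757 of 55291) were fitted with limma 3.58.1 in R 4.3.3 (trended empirical Bayes) on log2(normalised count + 4) with 1 term per group, so that the 8 groups shared 1 estimate of spread, and p-values were adjusted by Benjamini-Hochberg over all genes with a threshold of 0.05. Log2 differences on this scale understate changes of low genes. There were 13 differences and 2 F tests among mutants. The code was tested on simulated data. The labels do not say whether replicates are separate cultures, so p-values measure the spread between these libraries, which may be technical. All 10 members passed the filter and were named, as were the 3 genes most correlated with each of the 3 members of widest range among genes averaging 100 or more. Of the called genes of the 7 pathway lists a selection was named, not all of them and not always those of largest change. In each line the deviations of same-numbered libraries in the 2 media correlated between 0.27 and 0.30, and the labels state no common origin. A block of replicate number within each line was therefore added for the differences between media, chosen after seeing the data. A called gene of the S phase list is not reported here by name. The members and lists were chosen with earlier results of these data known. Gene positions came from GENCODE M21 and promoter sequences from RefSeq (GRCm38.p6). Alternatives were the pseudocounts 1 and 16, no filter, a mean of at least 50, TMM and upper-quartile scaling, log2(TPM + 0.1), a replicate block, a fit to the libraries compared, edgeR, DESeq2 and each library left out, 27 in all.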

Additional observations from a re-analysis of the deposited data

Results flagged for a closer look

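In 3 CDK inhibitor genes the medium response of K365T differed from that of WT by the test of the difference itself (limma, no LIF minus LIF, K365T minus WT on the log2 scale). The difference was -2.04 for Cdkn2b, 1.59 for Cdkn1a and -2.26 for Cdkn2a. Of all genes 0.332% were called higher and 0.327% lower in this test. Of 27 alternatives 6 kept the call of Cdkn2b, 26 that of Cdkn1a and 18 that of Cdkn2a. In Q418R the response of Cdkn2b differed from that of WT by -1.47, which did not pass (adjusted p = 0.281 in limma). In WT Cdkn2b and Cdkn2a rose and Cdkn1a fell on removal of LIF, whereas in K365T Cdkn2a fell and the other two did not pass the test. Cdkn2b and Cdkn2a are neighbours on chromosome 4, so that they are not independent observations. With 2 libraries a group no group was large enough to look for single libraries far from the others.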

How the results depend on the processing

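Of 36 calls with a direction among the 10 genes, 16 outlasted all 27 alternatives, all of them responses to the medium, and 0 of the 11 calls of a mutant against WT did. No direction reversed. The number of members called in Q418R between media was 5 and became 3 in TPM. In K365T against WT in LIF it was 2 and became 1 without a filter. In Q418R against WT in LIF it was 0 and became 1 with upper-quartile scaling, 2 with the fit to the libraries compared and 2 with DESeq2. Without LIF it was 6 in K365T and 3 in Q418R, each 0 with the fit to the libraries compared, and 1 in Q418R without a filter and in TPM. How many of all genes the fit to the libraries compared called is not given here. Its counts of 0 are therefore not read as results about the members. The 1 call of K365T's response against that of WT became 0 with pseudocount 1, without a filter, with upper-quartile scaling, in TPM, with the fit to the libraries compared and with edgeR. The F test called 1 in LIF, 0 with pseudocount 1, without a filter, with a mean of at least 50, in TPM and with the replicate block, and 2 with the fit to the libraries compared and with DESeq2; it called 3 without LIF and 0 with the fit to the libraries compared. With each library left out, the lone library of a group being assumed to vary like the other groups, counts ranged between 4 and 7 for the medium in R342C and K365T, 4 and 6 in Q418R and 5 and 6 in WT. They ranged between 0 and 3 for K365T and 0 and 1 for Q418R against WT in LIF, between 2 and 6 and between 0 and 3 without LIF, and between 0 and 2 for the response of K365T against that of WT. The F test ranged between 0 and 1 in LIF and between 1 and 4 without LIF.

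Over all 28 pairs of groups the deviations of same-numbered libraries correlated between -0.39 and 0.45, with 13 pairs over 0.1. With 1 replicate block shared by all lines the medium called 7 members in R342C, 6 in K365T, 5 in Q418R and 6 in WT, K365T against WT 2 in LIF and 6 without LIF, and Q418R against WT 2 without LIF. With the block within each line, chosen after seeing the data, the medium called 7 in R342C, 7 in K365T, 6 in Q418R and 7 in WT, adding Ccne1 in Q418R and WT and Cdkn1b in K365T, and it ended no call of the 10 genes between media. The difference of the K365T response from that of WT in Cdkn2b then had an adjusted p of 0.00929 in limma. With 2 libraries a group, Cdkn2b at 42.8 to 184 normalised counts had the lowest mean normalised count of the 10 genes.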
